A study of Drosophila melanogaster with 2 samples.

Results

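The genes that encode the basal machinery of transcription by RNA polymerase II were examined in a map of Spps binding: 67 protein-coding genes out of 13968 in the annotation. They were chosen by a rule on gene symbols, which itself used no measured values. The set was proposed with earlier results of these data known. The rule took every symbol that starts with MED or Taf plus a number, with TfII or with Polr2, and added kto, skd, CycC, Cdk8 and Tbp. By the role of their products they were 29 Mediator genes (8 of the head, 7 of the middle, 10 of the tail or of metazoan subunits, 4 of the kinase module), 16 TFIID genes including Tbp, 8 genes of the general factors TFIIA, TFIIB, TFIIE and TFIIF, the elongation factor gene TfIIS and 13 RNA polymerase II subunit genes. The data were peak lists from chromatin immunoprecipitation with sequencing (ChIP-seq), made with an anti-GFP antibody on embryos of Drosophila melanogaster, taken whole at 0 to 12 h, from 1 transgenic line in which Spps carries GFP at its C terminus. There were 2 biological replicates of this 1 group, no other genotype or treatment, and hence no contrast between conditions. Whole embryos mix all cell types and stages of that window, so a peak says nothing of the cells it came from. Each replicate list and the list from both replicates together (the pooled list) held 30000 peaks. The list of reproducible peaks, filtered by the irreproducible discovery rate (IDR), held 3260, which were the strongest pooled peaks by signal. Membership in it thus follows a cut on pooled signal. The depth of the libraries is unknown, intervals below cover counting over genes only, and a missing peak in a list that stops at 30000 is not an absence of binding.

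Mediator is the large complex that carries signals from transcription factors bound to enhancers to RNA polymerase II. Its head and middle touch the polymerase, its tail touches activators, and its dissociable kinase module can hold the polymerase off. TFIID, made of the TATA-binding protein Tbp and its associated factors (the Taf proteins), recognises core promoters, and TFIIA, TFIIB, TFIIE, TFIIF and TFIIH build the pre-initiation complex on it. These genes are broadly expressed housekeeping genes, apart from a few testis variants. Spps belongs to the Sp/KLF transcription factors and has been studied mainly at Polycomb response elements, through which developmental genes are silenced.

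Among the 67 genes, 13 carried an IDR summit no more than 500 bp from a transcription start site (TSS), a share of 19.4% (exact Clopper-Pearson 95% interval 10.8 to 30.9). The same call covered 13.6% of all protein-coding genes, which lies inside that interval. The 13 were spread over the roles: MED17 of the head, MED7 and MED31 of the middle, MED27 and MED30 of the tail and metazoan group, Taf5 and Taf2 of TFIID, TfIIA-L, TfIIB and TfIIEbeta of the general factors, and Polr2B, Polr2H and Polr2J of the polymerase. None of the 4 kinase module genes and not TfIIS was among them. By role the share ran between 0 of 4 in the kinase module (a limit of 3 counts would be 75.0%) and 3 of 8 in the general factors (37.5%, 8.52 to 75.5), with 5 of 29 for Mediator as a whole (17.2%, 5.85 to 35.8), and the intervals of all roles overlapped. Within the gene span an IDR summit fell in 2 of the 67 genes, skd and TfIIA-L (2.99%, 0.364 to 10.4), against 8.82% of all genes, beside a median gene length of 1312 bp for the 67 and 2164 bp for all genes. Span and promoter together gave 14 genes (20.9%, 11.9 to 32.6), against 17.7% of all genes.

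**Figure D1:**
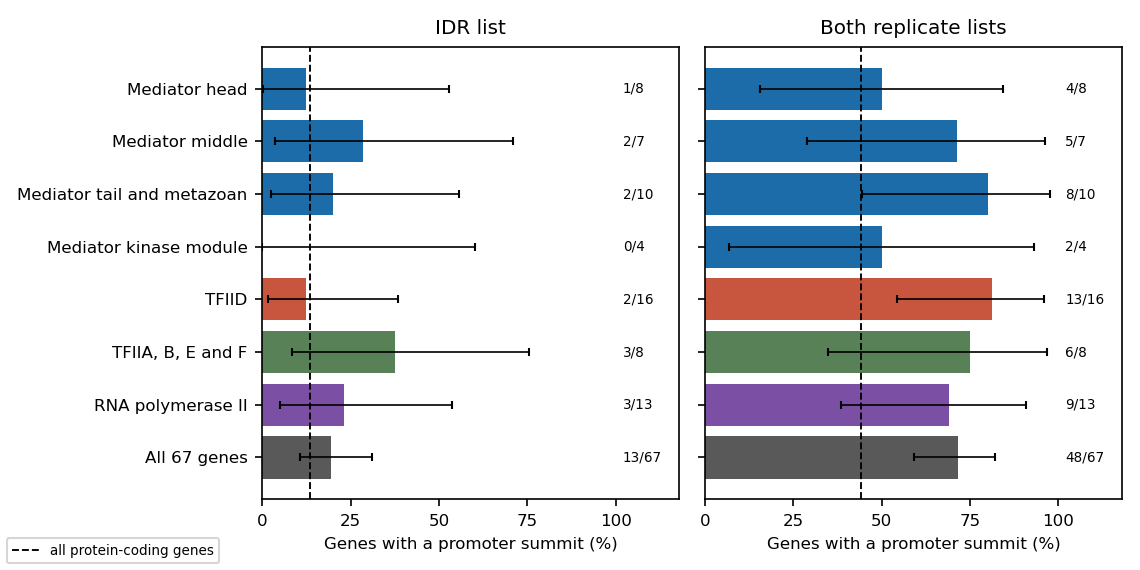
Share of genes with a Spps-GFP summit within 500 bp of a TSS, by role of the gene product, in the IDR list (left) and in both replicate lists (right). Bars are percent of the genes of a role, whiskers exact 95% intervals over genes, the fractions count genes, and the dashed line is the share of all protein-coding genes (13.6% left, 44.2% right). TfIIS, the only gene of its role, has no bar of its own but is in the bar of all 67 genes.

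The sequence under 12 of the 13 promoter summits is shown because these windows carry the positions, base composition and motifs described below. Each window holds the summit and 100 bp to each side, 201 bp in all, in dm6 coordinates, from the RefSeq release 6 assembly, and is written 5′ to 3′ on the strand of the named gene. Capitals mark a match to TATAAA, to GAGAG or to the core promoter element Motif 6, on either strand. A and T bases prevail in them, and 3 windows (Polr2B, TfIIB and TfIIEbeta) hold none of the strings described below.
Polr2B, chr3R:14125586-14125786, plus strand: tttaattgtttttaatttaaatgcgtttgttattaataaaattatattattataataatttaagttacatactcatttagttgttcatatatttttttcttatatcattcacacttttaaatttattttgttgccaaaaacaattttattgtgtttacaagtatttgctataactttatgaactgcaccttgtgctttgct
Taf2, chr3L:9888833-9889033, minus strand: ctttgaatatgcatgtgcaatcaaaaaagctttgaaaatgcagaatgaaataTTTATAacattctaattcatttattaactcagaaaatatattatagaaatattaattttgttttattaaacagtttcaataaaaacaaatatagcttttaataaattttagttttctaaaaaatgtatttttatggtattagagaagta
MED27, chr3R:5654906-5655106, plus strand: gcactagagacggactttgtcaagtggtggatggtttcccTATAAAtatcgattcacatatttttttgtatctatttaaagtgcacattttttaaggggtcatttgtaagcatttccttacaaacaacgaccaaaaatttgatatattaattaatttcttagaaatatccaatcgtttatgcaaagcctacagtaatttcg
MED30, chr3L:654172-654372, minus strand: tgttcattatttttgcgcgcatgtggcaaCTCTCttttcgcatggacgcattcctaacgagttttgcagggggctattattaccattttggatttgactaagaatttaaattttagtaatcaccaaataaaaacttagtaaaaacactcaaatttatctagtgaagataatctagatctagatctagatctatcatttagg
Polr2H, chr3L:21728664-21728864, plus strand: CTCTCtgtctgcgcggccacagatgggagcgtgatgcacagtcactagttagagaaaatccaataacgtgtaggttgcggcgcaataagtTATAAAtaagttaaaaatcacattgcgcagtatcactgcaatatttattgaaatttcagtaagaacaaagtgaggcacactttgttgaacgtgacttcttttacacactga
MED7, chr3R:10760984-10761184, minus strand: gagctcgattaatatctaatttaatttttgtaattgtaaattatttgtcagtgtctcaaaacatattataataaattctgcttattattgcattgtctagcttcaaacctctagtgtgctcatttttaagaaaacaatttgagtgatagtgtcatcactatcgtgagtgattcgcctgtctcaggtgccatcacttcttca
TfIIA-L, chr3R:27253213-27253413, plus strand: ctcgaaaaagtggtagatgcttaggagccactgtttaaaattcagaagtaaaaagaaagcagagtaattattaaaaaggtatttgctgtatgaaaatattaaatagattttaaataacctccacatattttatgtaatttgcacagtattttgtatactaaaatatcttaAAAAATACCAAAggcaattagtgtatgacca
MED17, chr3R:18188844-18189044, plus strand: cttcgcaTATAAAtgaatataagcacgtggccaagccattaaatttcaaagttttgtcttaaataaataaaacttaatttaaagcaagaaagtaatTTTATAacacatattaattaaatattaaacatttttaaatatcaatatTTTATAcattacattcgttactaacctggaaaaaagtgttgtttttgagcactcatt
MED31, chr3R:4641608-4641808, plus strand: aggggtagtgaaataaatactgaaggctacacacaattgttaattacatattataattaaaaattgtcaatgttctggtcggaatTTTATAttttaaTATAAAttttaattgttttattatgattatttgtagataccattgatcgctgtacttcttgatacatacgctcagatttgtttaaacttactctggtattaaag
Polr2J, chr2L:17410473-17410673, minus strand: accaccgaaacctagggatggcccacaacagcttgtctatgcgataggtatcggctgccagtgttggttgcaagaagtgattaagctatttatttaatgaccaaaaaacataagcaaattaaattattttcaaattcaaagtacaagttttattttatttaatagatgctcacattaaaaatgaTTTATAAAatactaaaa
TfIIB, chr2L:10431026-10431226, plus strand: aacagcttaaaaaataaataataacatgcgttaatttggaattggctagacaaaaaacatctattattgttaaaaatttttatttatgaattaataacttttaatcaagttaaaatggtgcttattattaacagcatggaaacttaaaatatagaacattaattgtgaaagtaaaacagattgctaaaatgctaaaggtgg
TfIIEbeta, chr3L:4286836-4287036, plus strand: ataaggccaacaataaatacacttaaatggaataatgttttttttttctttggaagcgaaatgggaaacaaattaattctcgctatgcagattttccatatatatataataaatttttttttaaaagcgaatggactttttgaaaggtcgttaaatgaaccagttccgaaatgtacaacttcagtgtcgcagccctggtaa

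The strongest of the 13 peaks lay at Taf5 (FBgn0010356), which encodes the WD-repeat scaffold of TFIID. It spanned 2R 10879731 to 10879983, with its summit 155 bp upstream of the Taf5 TSS in intergenic sequence. The peak had a pooled signal of 425 (the caller's value relative to its control, not comparable between lists) and rank 213 among the 3260. Its signal was 264 in replicate 1 (rank 215 of 30000) and 154 in replicate 2 (rank 249), so both replicates placed it near the top. The other TFIID gene was Taf2 (FBgn0011836), whose product touches DNA at the initiator. Its peak, 3L 9888915 to 9889071, had a pooled signal of 289 (rank 540), with 192 in replicate 1 (rank 434) and 90.3 in replicate 2 (rank 859). The summit lay 250 bp upstream of the Taf2 TSS and inside the 5′ UTR of the calpain gene CalpB.

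Of the 5 Mediator peaks, 2 lay at genes of the tail and metazoan group. MED27 (FBgn0037359), at 3R 5654897 to 5655095, had a pooled signal of 270 (rank 618), with 200 in replicate 1 (rank 396) and 66.4 in replicate 2 (rank 1434). MED30 (FBgn0035149), at 3L 654084 to 654459, had 213 (rank 957), with 146 in replicate 1 (rank 788) and 71.8 in replicate 2 (rank 1274). The 3 head and middle peaks were of like pooled strength. MED7 (FBgn0051390), whose product hinges the middle of Mediator, had a narrow peak at 3R 10761056 to 10761151 with a pooled signal of 184 (rank 1248), 138 in replicate 1 (rank 871) and 50.1 in replicate 2 (rank 2273). MED17 (FBgn0038578), the scaffold of the head, at 3R 18188756 to 18189131, had 175 (rank 1368), with 120 in replicate 1 (rank 1143) and 62.1 in replicate 2 (rank 1592). MED31 (FBgn0037262), of the middle, at 3R 4641520 to 4641895, had 174 (rank 1372), with 117 in replicate 1 (rank 1204) and 60.0 in replicate 2 (rank 1685). Among these 3 genes MED7 had the highest signal in replicate 1 and the lowest in replicate 2.

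Among the polymerase genes, Polr2B (FBgn0262955), which encodes the second largest subunit, had the strongest peak. It spanned 3R 14125584 to 14125809 with a pooled signal of 293 (rank 517), 186 in replicate 1 (rank 487) and 98.9 in replicate 2 (rank 712). Polr2H (FBgn0037121), a subunit shared by all nuclear RNA polymerases, had a peak at 3L 21728576 to 21728951 with 191 (rank 1168), 135 in replicate 1 (rank 902) and 52.7 in replicate 2 (rank 2095). Its summit lay in the 5′ UTR of CG11247. Polr2J (FBgn0032634), a partner of the subunit Polr2C in assembly, had a peak at 2L 17410385 to 17410760 with 166 (rank 1473), 99.7 in replicate 1 (rank 1569) and 70.9 in replicate 2 (rank 1296).

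The general factor peaks included the weakest of the 13. TfIIA-L (FBgn0011289), which encodes the precursor of the large TFIIA subunits that steady Tbp on DNA, had a peak at 3R 27253125 to 27253500 with a pooled signal of 175 (rank 1366), 123 in replicate 1 (rank 1072) and 55.2 in replicate 2 (rank 1941). The summit lay 117 bp upstream of one TfIIA-L TSS and in an intron of the transcripts that start farther upstream. TfIIB (FBgn0004915), the bridge between Tbp and the polymerase, at 2L 10430938 to 10431313, had 124 (rank 2314), with 72.6 in replicate 1 (rank 2621) and 46.9 in replicate 2 (rank 2548). TfIIEbeta (FBgn0015829), a subunit of the factor that brings in TFIIH, at 3L 4286748 to 4287123, had 108 (rank 2897), with 60.6 in replicate 1 (rank 3519) and 37.0 in replicate 2 (rank 3843). It was the one of the 13 outside the 3260 strongest peaks of each replicate list, and the other 12 were inside both. Just outside the IDR list, Polr2F had a pooled signal of 96.1 at rank 3488, beside 101 for the weakest IDR peak of the genome. The 13 peaks had a median pooled signal of 184, against 157 for all 1388 IDR summits within 500 bp of a protein-coding TSS, and lay between the 10.5th and the 91.7th percentile of these.

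**Figure D2:**
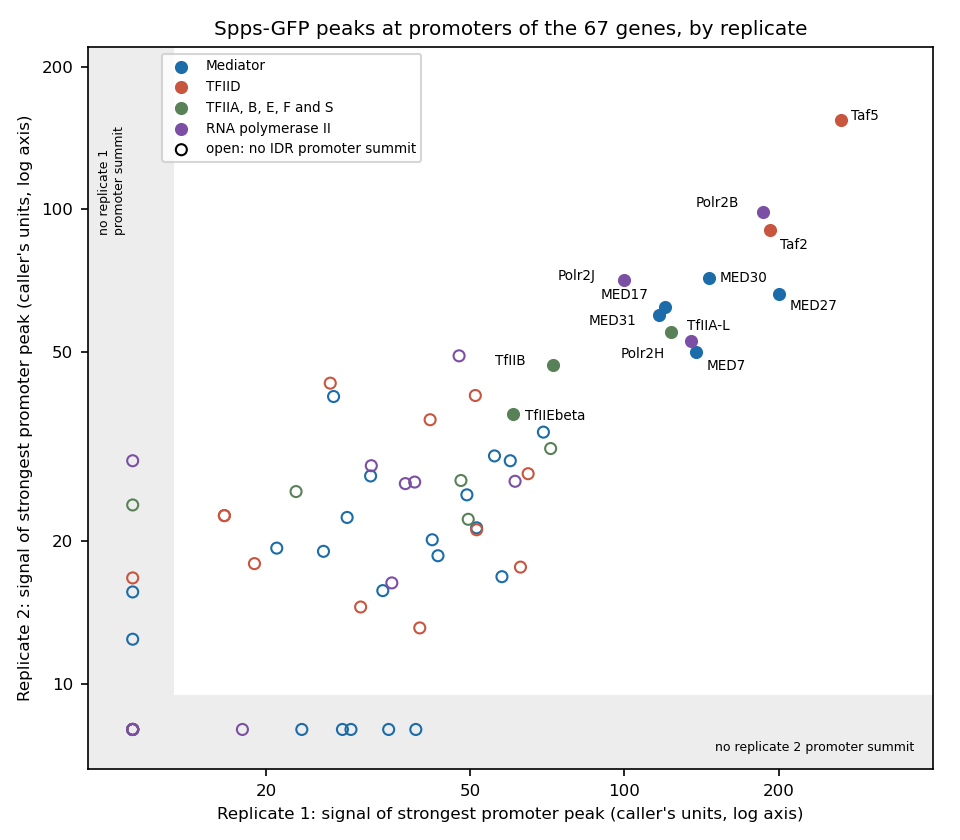
Signal of the strongest promoter peak of each of the 67 genes in replicate 1 (x axis) and replicate 2 (y axis), in the caller's units on log axes. Filled points are the 13 genes with an IDR promoter summit, with Taf5 at the upper right (264 and 154), and open points are the other 54, coloured by role. Points in the grey bands lack a promoter summit in one replicate list, and the 8 genes that lack one in both overlap in the lower left corner.

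Every one of the 13 summits lay upstream of the nearest TSS of the named gene, between 255 bp (MED31) and 52 bp (MED7) from it, with a median position of -155 bp. At TfIIA-L that TSS is an inner one, and the summit lay within the gene. Over all genes with an IDR promoter summit, 86.6% of summit and gene pairs lay upstream, with a median of -140 bp. Between the IDR summit and the matching replicate summit the distance was at most 98 bp (MED17, replicate 2). In the fuller replicate lists, which hold weaker peaks, upstream placement covered 51 of 67 summit and gene pairs in replicate 1 (76.1%, against 67.3% for all genes) and 45 of 64 in replicate 2 (70.3%, against 64.9%).

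Of the 13 summits, 12 also lay within 500 bp of the TSS of another gene, since the named gene starts beside a neighbour on the opposite strand. The exception was TfIIEbeta, which had no such neighbour. Over all genes, 1078 of the 1897 with an IDR promoter summit had a neighbour that starts within 500 bp upstream on the opposite strand. In 10 of the 12 the summit fell between the 2 start sites. In Taf5 it lay 155 bp from the Taf5 TSS and 146 bp from that of Pex6, a gene of peroxisome assembly. In Polr2B the distances were 105 bp to its own TSS and 138 bp to that of 140up, and in MED7 they were 52 bp and 226 bp to the condensin gene Cap-H2. TfIIA-L shared its summit with pll (Pelle, the kinase of the Toll pathway, 131 bp) and TfIIB with the cilium gene Bug22 (208 bp, against 212 bp to TfIIB). In 7 of the 12 the neighbour was the nearer gene: MED30 (Rev1, a translesion DNA polymerase gene, at 91 bp), MED31 (CG9775 at 129 bp, with slx1, a nuclease subunit gene, starting at the same base as MED31), Polr2H (CG11247 at 42 bp), Polr2J (CG15141 at 68 bp), Taf2 (CalpB at 171 bp), Taf5 and TfIIB. When each summit counted for its nearest TSS alone, 6 of the 67 genes were left, beside 9.77% of all genes. For all genes, counts of summits between start sites or nearer to a neighbour are not given. The lists cannot tell which gene of a pair a summit belongs to.

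**Figure D3:**
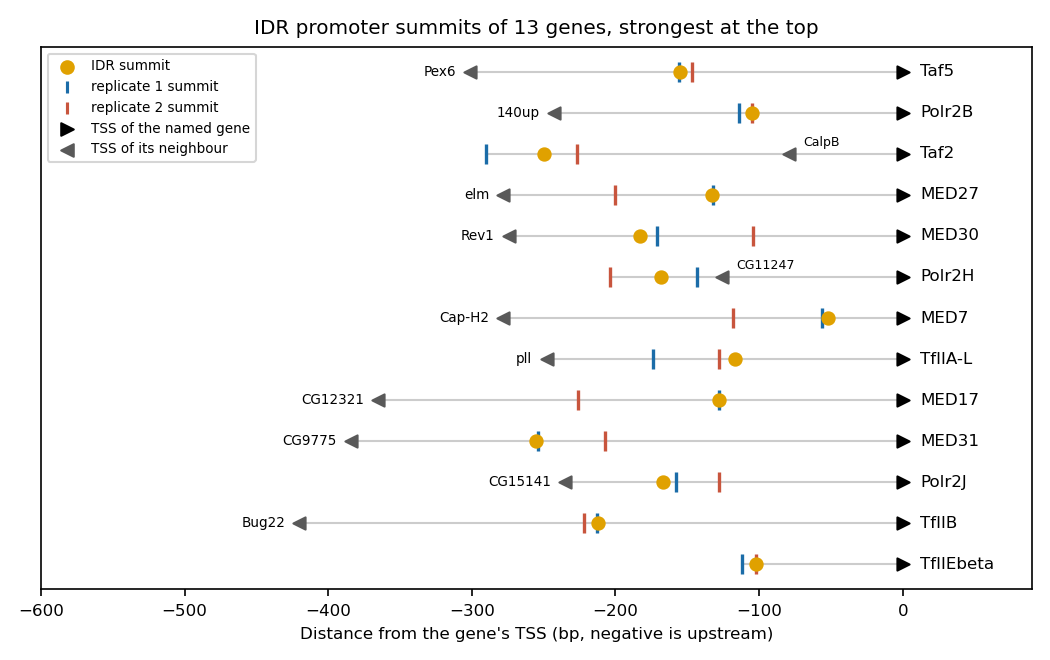
Positions of the 13 IDR promoter summits relative to the TSS of the named gene, in bp with negative values upstream, strongest peak at the top. Circles are IDR summits, ticks the nearest summit of each replicate, black triangles the named gene's TSS and grey triangles that of its neighbour on the opposite strand. In 10 rows the circle falls between the 2 triangles, at Taf2 and Polr2H it lies beyond the neighbour's TSS, and TfIIEbeta has no neighbour. At MED31 a further CG9775 TSS, 125 bp upstream, is not drawn, and the circle lies beyond it.

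Such divergent promoters, with a start site on the opposite strand within 500 bp upstream, were common among the 67 genes: 40 had one (59.7%), against 27.3% of all protein-coding genes. IDR promoter summits were at 12 of these 40 (30.0%, exact 95% interval 16.6 to 46.5) and at 1 of the other 27 (3.7%, 0.0937 to 19.0). Over all genes the shares were 28.3% of 3815 divergent genes and 8.07% of 10153 others, and both lay inside the interval of the machinery's genes of that class. The spacing of the start sites varied among the divergent genes of the machinery. With an IDR summit the median gap was 258 bp (79 to 420 bp, n = 12), and without one it was 131 bp (19 to 500 bp, n = 28), with gaps under 100 bp in 1 gene (8.33%) and in 11 genes (39.3%). Among the 28, Taf10 and Taf10b face each other, so their 1 gap counts for both. For all genes the medians were 257 bp with an IDR summit and 236 bp without, with 15.7% and 24.2% of gaps under 100 bp. The difference in gap was not tested.

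**Figure D4:**
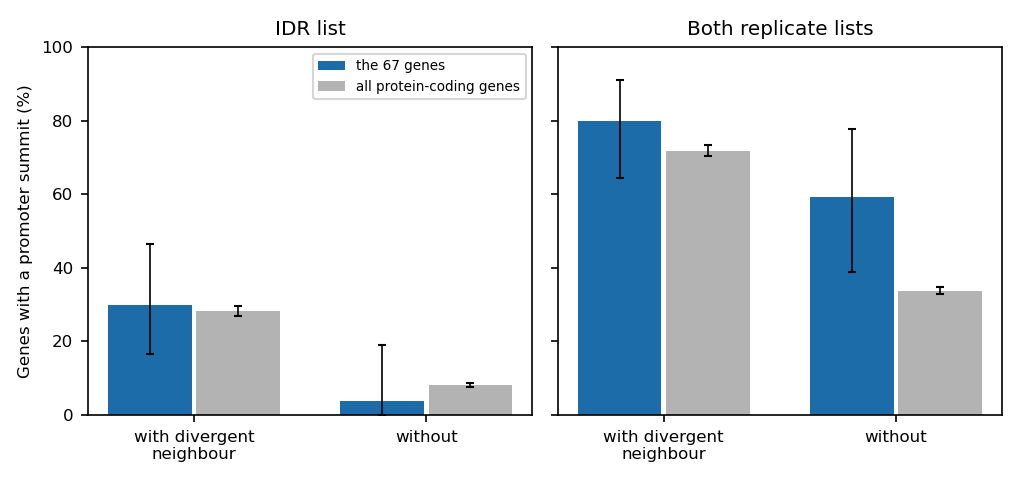
Share of genes with an IDR promoter summit (left) and with a promoter summit in both replicate lists (right), split by whether a gene on the opposite strand starts within 500 bp upstream. The 67 genes stand beside all protein-coding genes, and whiskers are exact 95% intervals over genes. In the IDR list the 2 sets have 30.0% and 28.3% among divergent genes, and in both replicate lists they have 59.3% and 33.8% among genes without a divergent neighbour.

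The fuller lists held a promoter summit of most of the 67 genes, the 13 above included. Replicate 1 had one at 54 genes (80.6%, 69.1 to 89.2), against 54.9% of all genes, and replicate 2 at 53 (79.1%, 67.4 to 88.1), against 51.7%. Both replicate lists held one at 48 genes (71.6%, 59.3 to 82.0), against 44.2%, and the pooled list at 58 (86.6%, 76.0 to 93.7), against 55.0%. Of the 54 genes without an IDR promoter summit, replicate 1 held a promoter summit at 41 (75.9%, 62.4 to 86.5), against 47.9% of the 12071 such genes in the annotation, and replicate 2 at 40 (74.1%, 60.3 to 85.0), against 44.2%. Both replicates held one at 35 of the 54 (64.8%, 50.6 to 77.3), against 35.5%, and the pooled list at 45 (83.3%, 70.7 to 92.1), against 47.9%. In 44 of the 48 genes 2 replicate summits lay within 200 bp of each other (65.7% of the 67, against 39.0% of all genes). The share in both lists was 32 of 40 for divergent genes of the machinery (80.0%, 64.4 to 90.9), against 71.8% of all divergent genes, inside that interval. It was 16 of 27 for the others (59.3%, 38.8 to 77.6), against 33.8% of all other genes, below that interval. By role it was 13 of 16 for TFIID, 8 of 10 for the Mediator tail and metazoan group, 6 of 8 for the general factors, 9 of 13 for the polymerase, 5 of 7 for the Mediator middle, 4 of 8 for the head and 2 of 4 for the kinase module. Among the 10000 strongest peaks, both replicates held a promoter peak of 29 of the 67 genes, against 25.7% of all genes. Inside gene spans, both replicates held a summit in 16 genes (23.9%, 14.3 to 35.9), against 33.5% of all genes, which lies inside that interval, beside the shorter spans of the 67 genes given above.

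Outside the IDR list, peaks were compared where summits of both replicates lay within 200 bp of each other. The strongest such peak of each role, by the lowest sum of its replicate ranks, ranked 3488 or beyond in the pooled list. MED4 and TfIIEalpha had stronger peaks in each replicate than the genes given for their roles, at 69.5 and 71.8 in replicate 1 and 33.9 and 31.3 in replicate 2, but with summits farther apart than that. For the polymerase it lay at Polr2F, a subunit shared by all nuclear RNA polymerases, 52 bp upstream, with a signal of 47.6 in replicate 1 (rank 5219) and 49.1 in replicate 2 (rank 2347). For TFIID it lay at Taf1, the gene of the largest subunit, 38 bp downstream of the TSS, with 51.2 in replicate 1 (rank 4664) and 40.5 in replicate 2 (rank 3307). Taf4 had a higher signal than Taf1 in replicate 1 (64.9, rank 3135) and a lower one in replicate 2 (27.7, rank 6368). In the pooled list Taf4 had 95.1 (rank 3549) and Taf1 87.5 (rank 4047). Polr2F and Taf1 ranked higher in replicate 2 than in replicate 1. The reverse held for the other roles. MED19, of the head, had a peak with 59.9 in replicate 1 (rank 3588) and 29.5 in replicate 2 (rank 5661). MED16, of the tail, had 49.3 in replicate 1 (rank 4931) and 25.0 in replicate 2 (rank 7697). TfIIS, whose product restarts stalled polymerase by cleaving the transcript, had 48.0 in replicate 1 (rank 5146) and 26.8 in replicate 2 (rank 6753). TfIIA-S, the small TFIIA subunit gene, had 49.6 in replicate 1 (rank 4896) and 22.2 in replicate 2 (rank 9505). MED1, the subunit that binds nuclear receptors, had 42.2 in replicate 1 (rank 6349) and 20.1 in replicate 2 (rank 11571). The deposited −log10 q-value of the MED1 peak was 2.43 in replicate 1 and 1.03 in replicate 2.

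The kinase module had no IDR summit at its promoters, where 2 of its 4 genes held summits in both replicates and 2 in replicate 1 alone. Over all genes with a promoter summit, the median rank of the strongest was 6978 in replicate 1 and 7355 in replicate 2. Cdk8, the kinase itself, had a promoter peak with 51.5 in replicate 1 (rank 4630) and 21.3 in replicate 2 (rank 10361). Its cyclin gene CycC had a signal of 29.3 in replicate 1 (rank 11403) and no promoter summit in replicate 2. Likewise kto, which encodes Med12, had 23.5 in replicate 1 (rank 16406) and none in replicate 2. At skd, which encodes Med13 and has 2 start sites, the strongest promoter peaks of the replicates lay at different start sites. In replicate 1 it had 55.8 (rank 4056, summit at 3L 21026520, 316 bp upstream of one start site). In replicate 2 it had 30.2 (rank 5422, summit at 3L 21027452, 18 bp upstream of the other). Near that second site, replicate 1 had a weaker peak of 26.8 (rank 13207). The same gene carried the one IDR peak of the module, not at its promoter but in an intron, at 3L 21007746 to 21008121, 18270 bp from the nearest skd TSS. That peak had a pooled signal of 120 (rank 2455), with 76.8 in replicate 1 (rank 2385) and 50.6 in replicate 2 (rank 2233). Over its span of 34621 bp skd held 10 summits in replicate 1 and 8 in replicate 2.

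Tbp, on arm 2R, had a weak promoter peak of 30.6 in replicate 1 (rank 10661, 70 bp upstream), and its strongest in replicate 2 was 14.5 (rank 21205, 465 bp downstream). Taf10 and its paralogue Taf10b start 45 bp apart on opposite strands and share their peaks, with a signal of 16.6 in replicate 1 (rank 28664) and 22.6 in replicate 2 (rank 9229), so these 2 genes rest on the same peaks. The summits of the 2 replicates lay farther than 200 bp apart there, and the replicate 1 peak had a −log10 q-value of 0.19. In all, 11 of the 67 genes had a promoter summit in 1 replicate list only (16.4%), against 18.2% of all genes, and 8 in neither (11.9%), against 37.6%. No list held a summit in the span or promoter of 7 genes (10.4%), against 28.9% of all genes: MED11 and MED18 of the head, MED21 of the middle, Taf8, the testis variant Taf12L, the TFIIA small subunit paralogue TfIIA-S-2 and Polr2L. Taf8 gained an IDR summit when the promoter was widened to 1000 bp. The X chromosome carried 3 of these 7 genes (MED18, Taf8 and TfIIA-S-2). Of the 6 genes on the X, Polr2A, the gene of the largest polymerase subunit, was the one with a promoter summit in both replicates, at 37.4 in replicate 1 and 26.4 in replicate 2. That is a share of 16.7% with an exact interval of 0.421 to 64.1, which holds the 44.2% of all X genes.

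Of the strings searched, TATAAA, the letters of the TATA box, was in the most windows of the 13 summits. It was also common at all IDR promoter summits, and the difference in share was not tested. Within 100 bp of the summit, TATAAA was in 7 of 13 windows (53.8%), against 43.2% of the 1388 IDR promoter summits, and at MED17 it occurred 3 times. GAGAG (the GAGA site) was in 2 windows, MED30 and Polr2H (15.4%), against 18.5%. CGATA, the core bound by the boundary protein BEAF-32, was in 3 (23.1%), against 35.1%, and GCCAT, the core of the Polycomb recruiter Pho, was in 3 (23.1%), against 24.1%. Motif 6 was in 1 window, TfIIA-L (7.69%), against 1.37%. No window held TATCGATA (the DNA replication-related element, DRE, which contains CGATA), the Sp/KLF core GGGCGGG with its variant GGGCGTG, the E-box string CAGCTG or Motif 1, against 6.12%, 1.08%, 8.65% and 2.67% of all. With 3 counts taken as the limit that a count of 0 leaves, 0 of 13 reaches up to 23.1%, above each of these 4 values. All motifs were searched on both strands, and a match is a string of letters, not a site.

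The core promoters themselves, 200 bp to each side of the outermost TSS, were searched for the same strings. These windows of 401 bp are longer than the 201 bp windows at summits, so shares are compared only with other promoters. TATCGATA was in 12 of the 67 (17.9%), against 9.13% of 13945 promoters, at 2 of the 13 genes with an IDR promoter summit (MED7 and MED17) and 10 of the other 54. Motif 1 was in 9 (13.4%), against 4.42%, with 0 of the 13 and 9 of the 54. Its carriers were MED11, MED15, MED19, MED20, MED22, MED23 and MED24, Polr2D and Taf4. Motif 6 was in 6 (8.96%), against 2.12%, with 2 of the 13 (Taf2 and Taf5) and 4 of the 54. TATAAA was in 37 (55.2%), against 48.4%, GAGAG in 19 (28.4%), against 37.5%, and an Sp/KLF core in 2 (2.99%, Polr2A and TfIIEbeta), against 4.59%. CGATA was in 40 (59.7%), against 54.2%, GCCAT in 38 (56.7%), against 53.3%, and CAGCTG in 12 (17.9%), against 22.3%.

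The windows at the 13 summits were low in GC, a property looked at after the sequences had been seen. Their GC content had a median of 26.9%, between 18.4% (Taf2) and 40.3% (Polr2H), and 11 of 13 lay below the median of 32.3% of all IDR promoter summits. In windows of the same size set 155 bp upstream of the TSS of every gene, the median position of the 13 summits, the median GC content was 28.4% for the 13 genes, 32.6% for the other 54 and 35.8% for all genes. The same windows of all genes had a median of 32.3% with an IDR promoter summit and 36.3% without. The part of base composition in where peaks were placed was not tested.

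**Figure D5:**
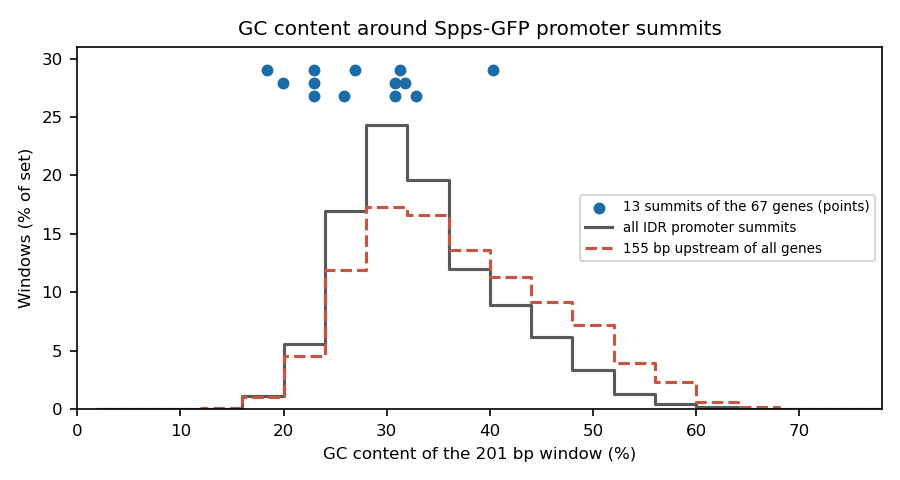
GC content of the 201 bp window at each of the 13 summits (points, whose height has no meaning) over the distributions for all 1388 IDR promoter summits (solid line) and for windows 155 bp upstream of all genes (dashed line), as percent of each set. The points run between 18.4% and 40.3%, and 11 of the 13 lie below 32.3%, the median of all.

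Other genes of the same pathway gave counts on either side of these. Over all protein-coding genes the shares were 13.6% for an IDR promoter summit and 44.2% for promoter summits in both replicates. Each interval given here holds the 13.6%. TFIIH, which opens the DNA at the start site, had IDR promoter summits at 4 of 10 genes (40.0%, 12.2 to 73.8), namely Ssl1, Tfb5, Xpd and mrn, and promoter summits in both replicates at all 10. The pausing and elongation factors had 4 of 11 (36.4%, 10.9 to 69.2), namely Nelf-E, TH1, Spt5 and dre4, with 9 of 11 in both replicates. SAGA, the coactivator that shares Taf proteins with TFIID, had 4 of 16 (25.0%, 7.27 to 52.4), namely Ada2b, Gcn5, Spt3 and wda, with 12 of 16 in both. The Tbp relatives Trf and Trf2 had no IDR promoter summit but one in both replicates each. Of 4 testis Taf paralogues none had an IDR promoter summit and 2, nht and mia, had one in both replicates.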

How the data were processed

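Peak lists of 2 biological replicates of anti-GFP ChIP-seq were read in dm6 coordinates, the build given per the labels. The IDR threshold, the aligner and the caller's name are not stated by the labels or headers used here. As the listings deposited with the samples record, the same control served both replicates. The signal and the −log10 q-value of a peak are the deposited values of the authors' caller, and the summit offset is the distance from peak start that the authors deposited. All 3260 IDR peaks have the summit and signal of a pooled-list peak, and no peak was identical between the replicate lists. The weakest IDR peak has rank 3260 in the pooled list, so the IDR list is the top of that list by signal. Ranks are by signal within a list. The lowest −log10 q-value was 0.197 in the deposited pooled list, 0.174 in replicate 1 and 0.228 in replicate 2, so the ends of these lists hold weak peaks.

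Genes and transcripts came from Ensembl release 115 and sequence from the RefSeq release 6 assembly, which has dm6 coordinates. A promoter was 500 bp to either side of any TSS of the gene. Replicate summits matched within 200 bp. Shares have exact (Clopper-Pearson) 95% intervals, and for a count of 0 the limit is 3 counts. No test compares samples or gene sets. The genes and lists were chosen with earlier results of these data known. Named are all genes with an IDR promoter summit, the kinase module, Tbp, the strongest replicated peak of each role outside the IDR list (lowest sum of ranks, summits within 200 bp), the nearest gene outside the IDR limit and those without any summit, and other names were added after values were seen. Peak assignment was checked on constructed peaks. Alternatives were other windows, assignments, list lengths and single replicates. Values were computed with pandas 2.3.3, NumPy 2.4.6 and SciPy 1.17.1 under Python 3.11.15 and drawn with matplotlib 3.10.9. One file of text listings per sample was not used for values. One further list of related genes is not reported here, so the printed lists are not all that were counted.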

Additional observations from a re-analysis of the deposited data

How the results depend on the processing

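Of 33 alternative values, 16 stayed close to those reported, 17 moved and 0 reversed. These labels are for the values themselves, not their order against all genes, which sometimes changed. The IDR promoter share, above that of all genes, fell below it with the nearest TSS alone. The IDR span share, below that of all genes, rose above it with 500 or 2000 bp added. The DRE share, below that of all summits, rose above it with 200 bp searched. The median position, upstream of that of all genes, lay downstream of it with the nearest TSS or replicate 2 alone. The 13 genes with an IDR promoter summit became 6 with the nearest TSS alone (9.77% of all genes), 5 with the 1000 strongest IDR peaks (MED27, MED30, Polr2B, Taf2 and Taf5; 4.52%) and 58 with the full pooled list (55.0%), and 14 to 15 with the 3260 strongest peaks of 1 replicate. The 2 genes with an IDR summit in the span became 0 with the 1000 strongest peaks (3.33% of all genes), 27 with the pooled list (42.7%), 16 with 500 bp added to the span (19.1%) and 26 with 2000 bp added (26.0%), and 3 to 4 with 1 replicate, where leaving out replicate 2 gave the 4. The 48 genes with promoter summits in both replicates became 28 with the nearest TSS alone (33.9% of all genes) and 29 with the 10000 strongest peaks of each replicate (25.7%), and 53 to 54 in a single replicate. The median summit position of -155 bp became -144 with a 250 bp promoter, -167 with 1000 bp, -111 with the nearest TSS and -87 with the pooled list, and -143 to -138 with 1 replicate. The count of 0 summits with a DRE became 2 when 200 bp to each side were searched. The causes of these shifts were not tested beyond what each setting adds or leaves out. No paired analysis was possible because the study has 1 group. With no depth known, weak peaks cannot be told from limits of sequencing.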
